A study of Mus musculus with 2 samples.

Results

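Fine cluster 0 was the largest of the 12 fine clusters in which the authors had placed CD8 T cells of the mouse colon lamina propria. Its cells were those with the value 0 in the deposited cluster column, which named 1321 of 8562 cells (15.4%) and 3915239 of 25614763 UMIs, a UMI being a counted RNA molecule. By marker genes, taken over all of its cells together, it was a tissue-resident-like state, led by Itgae, the gene of the integrin chain CD103. The name does not hold equally for all of these cells. At a coarser resolution 588 of them (44.5%) lay in a part with less Itgae than the other main part. The part with less Itgae had more Ly6c2, a gene of circulating memory and effector T cells, and more Ccr2, Klrk1 and Klrg1.

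The model was colitis induced by transferred T cells, and the comparison was between CD8 T cells of 2 donor genotypes. Rag1 KO hosts, which lack their own T and B cells, received splenic wildtype naive CD4+CD45RBhighCD25- T cells, which drive the colitis, together with splenic TCRb+CD8b+CD4- T cells. All hosts shared the wildtype CD4 T cells. The CD8 T cells of the colon were collected 6 to 10 weeks later, at an age of 8 to 12 weeks when the transfer began, and were sequenced in 1 pooled 10x Genomics 5′ v2 library. The CD8 donors were Bcl6fl/fl mice, in which loxP sites flank part of the gene of the repressor BCL6, or Bcl6fl/fl Cd8aCre mice, in which Cre is driven by Cd8a sequences. The annotation names the groups Cren and Crep. They were read as Cre-negative and Cre-positive donors, which no source spells out. Each group had 4 hashtags, antibody-borne barcodes that mark the origin of a cell, but whether each stands for its own mouse is not stated. The p-values therefore measure the spread between hashtags.

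Tissue-resident memory CD8 T cells stay in barrier tissues such as the gut instead of recirculating. CD103 pairs with integrin beta 7 and binds E-cadherin on epithelial cells, and TGF-beta signalling is known to induce it. The transcription factor KLF2 drives S1pr1, the receptor by which T cells leave tissues for blood and lymph, and low KLF2 and S1PR1 are a known property of cells that stay.

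The Cren hashtags held 112 to 223 cells of the cluster and the Crep hashtags 183, 264, 153 and 52. Their UMI sums ran from 144097 in Crep 4 to 809655 in Crep 2, so Crep 4 had the least precise values. The median cell held 2727 UMIs (range 658 to 8071) and the median cell outside the cluster 2770. The cluster took 8.58%, 18.8%, 11.5% and 24.8% of the cells of the Cren hashtags and 17.96%, 24.2%, 15.3% and 4.97% of those of the Crep hashtags. Wilson 95% intervals, which cover counting error only, were widest at 22.1% to 27.7% for Cren 4. The groups overlapped, with 15.9% ± 7.31 in Cren and 15.6% ± 8.01 in Crep (SD, n = 4). These shares are a description, since 4 of the 10 leading genes of the cluster differed between the groups within it. Cren 4 had the highest share in the cluster of 2 T cell receptor alpha segments. A UMI of Trav8n-2 was found in 50.2% of its cells there and one of Trav4-4-dv10 in 38.1%. Largely the same cells carried them, as 117 of its 223 cells had either. Over all hashtags the shares were 11.05% and 8.78% inside the cluster, and 1.93% and 2.02% outside it.

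The genes with the highest ratio inside the cluster included the integrin gene Itgae, the surface receptor genes Gpr34, Cd160 and P2rx7 and the residency factor gene Zfp683, beside enzyme and cytoskeletal genes. A cluster is defined by the genes of its cells, so its levels against all other cells are given with no test, as CPM, the UMIs of a gene scaled to a fixed total in each hashtag. Of 3020 genes with at least 50 CPM in the cluster or outside it, 28 (0.927%) had a median ratio over the hashtags of at least 2 and 55 (1.82%) one of at most 0.5. Itgae (chromosome 11, 73090583 to 73147446, GRCm38) had the highest ratio, 4.602, with a mean of 338.5 ± 118 CPM in the cluster and 86.7 ± 50.4 CPM outside it (SD, n = 8). In the Cren hashtags Itgae was at 384, 417, 384 and 517 CPM inside the cluster and 86.5, 193, 64.1 and 102 CPM outside. In the Crep hashtags it was at 322, 228.5, 324.5 and 132 CPM inside and 74.1, 91.1, 66.7 and 15.7 CPM outside. Every hashtag was higher inside, and Crep 4 was the lowest on both sides.

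Next came Gpr34, a receptor for lysophosphatidylserine (72.0 against 19.25 CPM, median ratio 3.79), Apol7b, an apolipoprotein L gene (68.8 against 20.4 CPM, 3.62), Ly6g5b (50.01 against 12.8 CPM, 3.37) and Ckb, the brain creatine kinase (166 against 58.5 CPM, 3.02). Cd160, a receptor for HVEM found on intestinal lymphocytes, was at 536.5 ± 119 CPM against 226 ± 58.3 CPM (ratio 2.68). P2rx7, the ATP-gated channel (129 ± 45.6 against 55.8 ± 26.6 CPM, 2.45), and Zfp683, the gene of the residency factor HOBIT (72.2 ± 35.1 against 31.0 ± 17.5 CPM, 2.43), followed, along with Dtx1, a regulator of Notch signalling (83.6 against 33.3 CPM, 2.51). The most abundant leading gene was Cd7, a surface glycoprotein of T and NK cells, at 1171 ± 493 CPM against 502 ± 177 CPM (2.40). The others of the 20 leading genes were Osgin1, Prrt1, Abi3, Ifitm2, Actn2, Capg, Tcrg-C4, Hvcn1, Qpct and Isg20, with ratios from 2.2 to 2.61. Qpct (2.21) and Isg20 (2.2) were the last inside this number, and St8sia1 (2.12) and Pmepa1 (2.11) the first outside it.

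**Figure D1:**
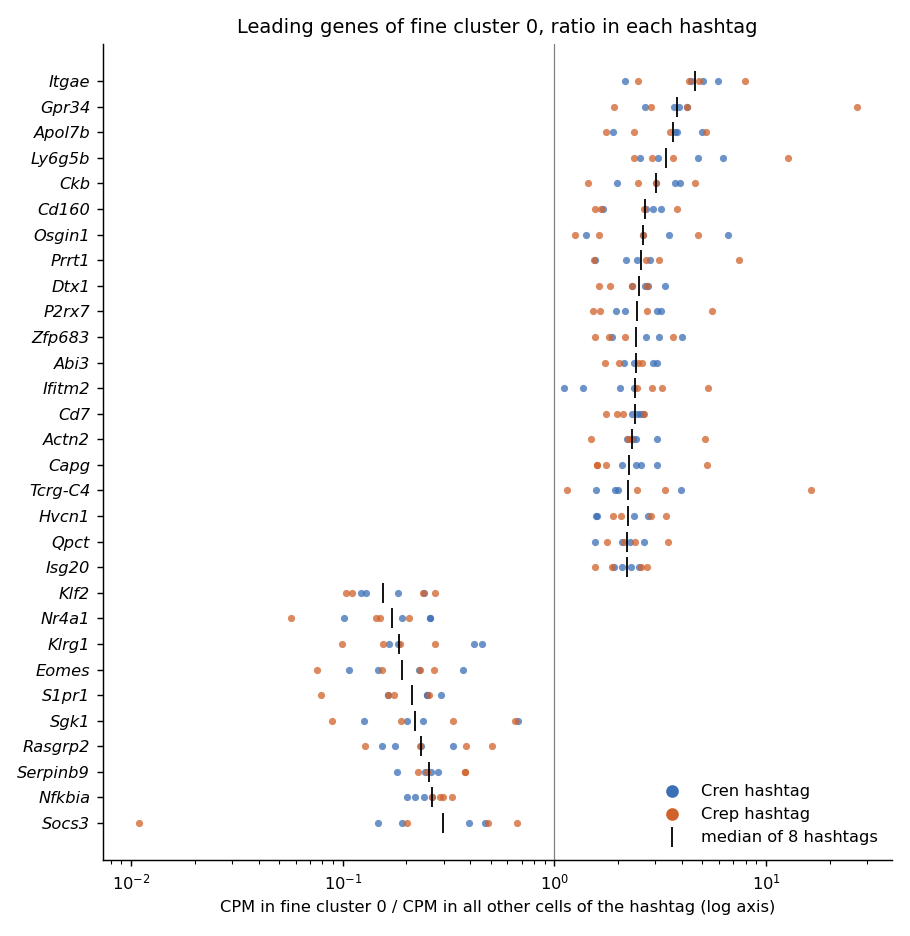
Ratio of the CPM inside fine cluster 0 to that in all other cells, on a log axis, for the 20 leading genes with higher and the 10 with lower levels; points are hashtags (blue Cren, orange Crep) and ticks the median of 8. The genes were chosen to lie on 1 side in every hashtag, from a median of 4.602 for Itgae down to 0.155 for Klf2.

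Genes of tissue exit, late effector cells and receptor signalling were at the other end. Klf2 (chromosome 8, 72319033 to 72321656) was at 189 ± 80.4 CPM in the cluster and 1138 ± 369 CPM outside it (SD, n = 8), a median ratio of 0.155. Its hashtags spread from 105 CPM (Crep 1) to 347 CPM (Crep 4) inside and from 660.0 CPM (Crep 2) to 1620 CPM (Crep 3) outside, with no overlap. S1pr1 was at 17.5 ± 8.73 against 92.0 ± 32.0 CPM (ratio 0.212). Klrg1, an inhibitory lectin of late effector cells, was at 45.1 ± 21.2 against 223 ± 143 CPM (0.184), and the effector transcription factor Eomes at 11.8 ± 5.68 against 65.8 ± 14.9 CPM (0.191). Nr4a1, the gene of the receptor-induced factor NUR77, was at 62.4 ± 39.3 against 352 ± 137 CPM (0.171), and Nfkbia, the inhibitor of NF-kappa-B, at 163 ± 24.1 against 637 ± 140 CPM (0.264). Sgk1, Rasgrp2, Serpinb9 and Socs3 completed the list, with ratios between 0.220 and 0.297.

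The 250 bases before the annotated starts of these genes were read from the RefSeq promoter table (GRCm38.p6), which held 12 of the 20 higher and 8 of the 10 lower leading genes. The motifs searched on both strands were the KLF box CACCC, TTCNNNGAA for BCL6 and STAT factors, and the SMAD palindrome GTCTAGAC, none of which contains another. At least 1 CACCC or its reverse complement GGGTG stood before 11 of the 12 higher genes (91.7%), 5 of the 8 lower ones (62.5%) and 5649 of 9349 genes with a UMI in the cluster (60.4%). TTCNNNGAA stood before 2 of 12 (16.7%), 2 of 8 (25.0%) and 678 of 9349 (7.25%). GTCTAGAC stood before 0 of 12, 0 of 8 and 25 of 9349 (0.267%). A match is a description of these letters, and no binding was measured. The 3 promoters below are shown because Klf2 was the lowest leading gene while Cd160 and P2rx7 are leading genes that also differed between the groups. They run 5′ to 3′ on the strand of the gene, with the KLF box in capitals. The starts are those of RefSeq. By the GENCODE gene coordinates given above, the Klf2 stretch runs past the start of the gene, and its KLF box lies inside the gene.

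Klf2 (chr8:72318812-72319061, plus strand): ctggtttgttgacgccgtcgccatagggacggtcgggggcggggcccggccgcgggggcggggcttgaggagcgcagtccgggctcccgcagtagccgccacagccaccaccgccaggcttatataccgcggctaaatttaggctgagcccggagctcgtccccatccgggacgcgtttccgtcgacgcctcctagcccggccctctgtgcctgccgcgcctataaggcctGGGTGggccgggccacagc

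Cd160, upstream start (chr3:96829352-96829601, minus strand): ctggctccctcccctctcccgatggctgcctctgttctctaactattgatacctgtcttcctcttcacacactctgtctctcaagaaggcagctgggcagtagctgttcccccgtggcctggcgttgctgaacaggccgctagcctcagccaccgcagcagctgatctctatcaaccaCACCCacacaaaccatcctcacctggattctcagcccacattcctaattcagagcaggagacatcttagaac

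P2rx7, upstream start (chr5:122643677-122643926, plus strand): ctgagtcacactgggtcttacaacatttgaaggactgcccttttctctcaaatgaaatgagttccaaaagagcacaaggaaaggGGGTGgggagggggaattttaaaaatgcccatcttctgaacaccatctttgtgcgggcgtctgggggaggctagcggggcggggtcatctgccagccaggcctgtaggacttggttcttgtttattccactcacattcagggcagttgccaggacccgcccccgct

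Against lists of marker genes the cluster had the most raised members for tissue residency. A marker was counted as raised at a ratio of 1.5 or more, provided that 5% of the cells or more carried it. The share of all genes that meet this rule was not counted. The numbers of raised and lowered members here and below therefore stand without a background. Of 12 residency markers 7 were raised, namely Itgae, Itga1 (161 ± 24.6 against 86.7 ± 23.3 CPM), the chemokine receptor gene Cxcr6 (689 ± 72.0 against 420 ± 68.1 CPM), Zfp683, Hic1, Jaml (275 ± 52.2 against 158 ± 25.1 CPM) and P2rx7. The residency markers had a median ratio of 1.68, against 1.01 over the 3020 genes. Not every residency marker followed: Cd69 was at 162 ± 18.8 against 202 ± 27.4 CPM, Rgs1 at 1860 ± 312 against 1823 ± 304 CPM, and Rgs2 was lowered. Of 16 effector transcription factor genes Zfp683 was the 1 raised, while Bhlhe40 and Prdm1 were among 8 lowered. Of 14 TGF-beta pathway genes Tgfbr1, Tgfbr3, Itgae and Ldlrad4 were raised, while Smad3 and Tgif1, a corepressor of the pathway, were lowered.

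Several killing and stem-like genes were lower inside the cluster. Of 16 cytotoxic markers 0 were raised and 9 lowered, among them Ccl5 (17000 ± 3953 against 27290 ± 6247 CPM), Prf1 (47.9 ± 10.6 against 88.0 ± 50.7 CPM), Ifng (159 ± 26.6 against 322 ± 79.4 CPM), Klrk1 and Cx3cr1. Granzyme genes themselves were not absent, with Gzma at 2672 ± 977 CPM and Gzmb at 1722 ± 1052 CPM. Of 13 stem-like markers 5 were lowered and 1 was raised, Id3 (43.9 ± 23.1 against 16.2 ± 11.1 CPM), while Tcf7 was level at 108 ± 31.7 against 111 ± 55.4 CPM. Ccr7, which encodes a lymph node homing receptor, was at 0.343 CPM. Of 12 exhaustion markers 7 were lowered and 1 was raised, Cd160.

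Early-response genes gave the widest lowered list, with 16 of 24 lowered, 0 raised and a median ratio of 0.540, against 1.01 over the 3020 genes. Pooled over hashtags, Nr4a1 was at 68.7 CPM in cluster 0, 117 CPM in fine cluster 1 and 45.7 CPM in fine cluster 7. For Nfkbia the levels were 164, 287 and 216 CPM, so low levels of these genes were not particular to cluster 0. Junb, a subunit of AP-1, was at 1352 ± 241 CPM inside and 2893 ± 744 CPM outside, Zfp36, an RNA-decay factor, at 222 ± 50.6 and 476 ± 99.6 CPM, and Dusp1, a MAP kinase phosphatase, at 236 ± 82.8 and 472.5 ± 150 CPM (SD, n = 8 for each). Genes of cell cycle, glycolysis, heat shock, oxidative phosphorylation and cytosolic ribosomes had 0 raised and 0 lowered members, with list medians from 0.877 to 1.125.

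Markers of other cell types were low. Of the 7 CD4 T cell, 12 myeloid, 3 B and plasma cell and 4 epithelial and stromal markers in the table, 0 were raised. Summed myeloid markers ran from 215 to 352.5 CPM over the hashtags inside the cluster and from 192 to 330 CPM outside it. Summed B and plasma cell markers ran from 6.61 to 33.95 CPM inside, and Igkc was at 0. The T cell genes Cd8a, at 1287 ± 85.5 CPM, and Cd3e, at 1781 ± 51.4 CPM, were abundant. Of 7 gamma-delta markers in the table Trgv2 (609 ± 167 against 330.5 ± 90.0 CPM), Tcrg-C2 and Tcrg-C4 were raised, while Trdc, the delta constant gene, was at 0.474 CPM.

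Across the fine clusters, pooled over hashtags, the cluster ranked the highest for Itgae (355.5 CPM), Cd7 (1219 CPM), Ckb (168 CPM) and Cxcr6 (691 CPM). For Itgae the next was fine cluster 2 at 331 CPM, then fine cluster 9 at 236 CPM, and the lowest was fine cluster 7 at 5.27 CPM. Cd160 was higher in fine cluster 11 (807 CPM) than in cluster 0 (534 CPM). Klf2 was at 167 CPM, with fine cluster 11 at 156 CPM and fine cluster 4 at 2472 CPM. Of the 20 leading higher genes 10 were highest in cluster 0 of all 12 fine clusters. Eomes, Serpinb9, Nfkbia and Socs3 were lowest in cluster 0 of all 12.

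**Figure D2:**
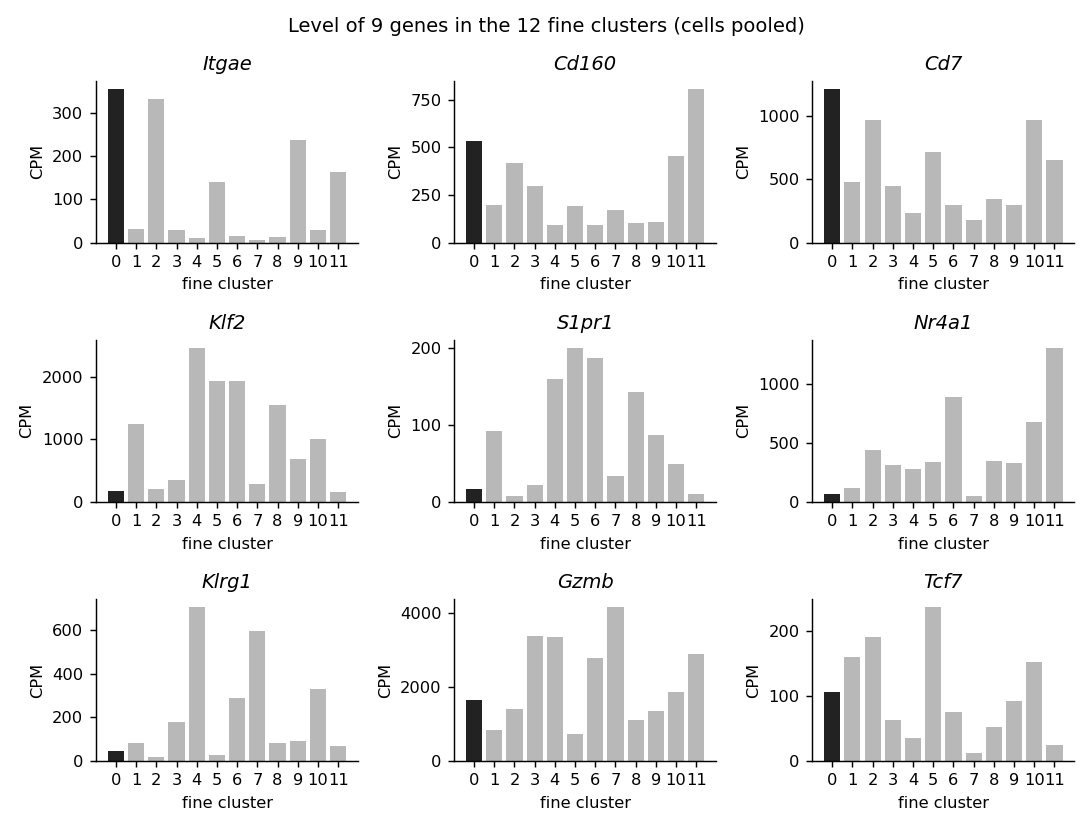
Level in CPM of 9 genes in each of the 12 fine clusters, with the cells of all hashtags pooled and no error shown; fine cluster 0 is black. Cluster 0 has the highest Itgae (355.5 CPM) and Cd7 (1219 CPM), and it shares high Itgae and low Klf2 with fine cluster 2.

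By correlation across 5744 genes of log2(CPM + 10), the clusters most like it were fine clusters 1 (r = 0.977), 2 (r = 0.976) and 3 (r = 0.974), and the least like was fine cluster 9 (r = 0.737). These are descriptions over genes of pooled cells, and genes are not replicates. Fine cluster 1 had lower levels of several residency genes, with Cxcr6 at 373 against 691 CPM in cluster 0. In cluster 0 Itgae was 11.05-fold and Apol7b 12.6-fold its level there, and Klf2 was 0.134 and S1pr1 0.194 of it. Fine cluster 2 was close in Itgae and Klf2, and 6 of the 20 leading higher genes were higher there than in cluster 0: Gpr34 (71.2 against 70.5 CPM), Apol7b (103 against 71.5 CPM), Prrt1 (80.5 against 63.3 CPM), Actn2 (274 against 272 CPM), Tcrg-C4 (66.8 against 64.6 CPM) and Qpct (139 against 122 CPM). It differed in early-response genes, with Nr4a1 in cluster 0 at 0.159, the immediate-early factor Csrnp1 at 0.225, Fosl2 at 0.234 and Nfkbia at 0.258 of the level in cluster 2. Ifitm1, an interferon-induced membrane protein (5.37-fold), the chemokine receptor gene Ccr2 (2.33-fold) and Gzma (2.08-fold) were higher in cluster 0. Each of these genes lay on the same side in all 8 hashtags, which was part of how they were chosen.

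At the coarser resolution of 0.6 the cluster was divided between coarse cluster 1, with 721 cells (54.6%), and coarse cluster 0, with 588 cells (44.5%), and 12 cells lay in coarse cluster 2. The cells in coarse cluster 1 carried more Itgae, Cd7 and Nt5e. Over the 6 hashtags with at least 20 cells on both sides, Itgae was at 520 ± 32.6 CPM in them and 145 ± 74.1 CPM in those of coarse cluster 0 (SD, n = 6). Cd7 was at 1702 ± 550 against 603 ± 105 CPM, the ectonucleotidase gene Nt5e (CD73) at 75.5 ± 24.9 against 29.4 ± 8.67 CPM, and the chemokine gene Xcl1 at 118 ± 70.9 against 35.5 ± 30.5 CPM. The cells in coarse cluster 0 had more of Ly6c2, a surface protein of circulating memory and effector T cells (926 ± 409.5 against 78.0 ± 80.3 CPM), Ifitm1 (948 ± 729 against 145 ± 107 CPM), Ccr2 (136 ± 31.7 against 29.9 ± 24.2 CPM), Klrk1, the gene of NKG2D (220 ± 79.1 against 58.1 ± 23.8 CPM), and Klrg1 (95.9 ± 40.2 against 23.9 ± 13.6 CPM).

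The division was unequal in the groups. Of the cells in either coarse cluster, the share in coarse cluster 1 was 70.3%, 80.8%, 61.5% and 94.6% in the Cren hashtags and 43.4%, 23.8%, 25.2% and 21.2% in the Crep hashtags. Every Cren hashtag had most of its cells there and every Crep hashtag had fewer. The tissue-resident-like name was drawn from all cells of the cluster together. In the Crep hashtags most of its cells lay in the part with less Itgae and more Ly6c2. The coarse clusters were made from the genes compared below, so this is a description, and how far the division and the gene differences set each other cannot be told apart.

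**Figure D3:**
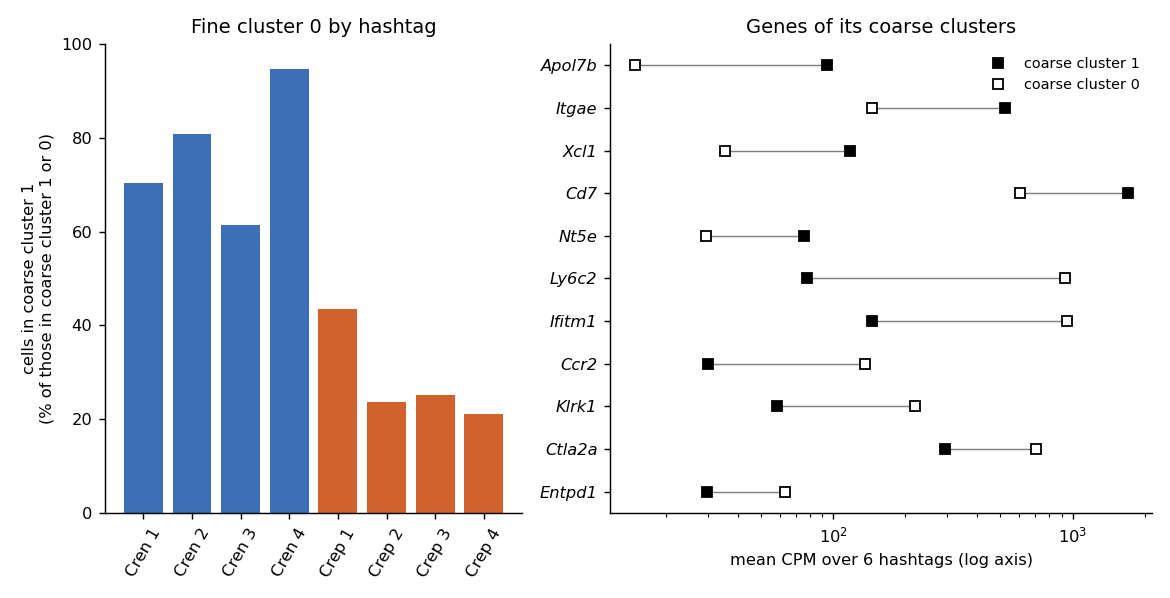
Left, bars give the percent of the fine cluster 0 cells of each hashtag that lay in coarse cluster 1, of those in coarse cluster 1 or 0, from 61.5% to 94.6% in Cren (blue) and 21.2% to 43.4% in Crep (orange). Right, mean CPM over 6 hashtags, on a log axis, of 11 genes in the cells of coarse cluster 1 (filled) and coarse cluster 0 (open).

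Between the donor genotypes, the cells of fine cluster 0 labelled Crep had more RNA of the chemokine receptor Ccr2, of Glrx, Entpd1 and Cyba, which are ectoenzyme or redox genes, and of Nkg7, and less of the surface glycoproteins Cd7, Cd5 and Cd6 and of the stem-like factors Tcf7 and Id3. UMI counts were summed per hashtag and compared with the quasi-likelihood test of edgeR, and CPM from here on are scaled with its TMM factors. Of 5409 genes tested, 53 (0.98%) passed at an adjusted p of 0.05, 27 of them with more RNA in Crep and 26 with less. The 0.98% is the share to set beside every count of list members past this test below. An unadjusted p under 0.05 was reached by 464 genes. Of the 27 higher genes 25 had all 4 Crep hashtags above every Cren hashtag, and of the 26 lower genes 17 had all 4 below. The genes were chosen on the same hashtags, so this separation adds nothing to the test. The number of genes fell to 18 without Crep 2 and to 25 without Crep 3. It was 48 without the 117 Cren 4 cells of its 2 most used alpha segments. With the mix of coarse clusters 1 and 0 held fixed 2 genes passed in limma-voom, which gave 41 without that step. The median absolute log2 difference was then 0.655 over 42 named genes that had passed before. It was 0.887 over all 43 in the edgeR fit without that step, by which they had been chosen. In the fixed mix, coarse cluster 1 of Crep 4 rested on 11 cells and coarse cluster 0 of Cren 4 on 12. The parts of tool, gene choice, cell number and mix in the drop were not tested.

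Ccr2, the receptor for the monocyte chemoattractant CCL2 (chromosome 9, 124101950 to 124113557), had one of the largest increases. Its level was 48.3, 24.1, 57.4 and 14.4 CPM in the Cren hashtags and 138, 128, 116 and 148 CPM in the Crep hashtags. The lowest Crep hashtag thus lay well above the highest Cren hashtag. The log2 fold change was 1.99 ± 0.26 (SE; adjusted p by edgeR 9.02e-05), and it stayed between 1.67 and 2.31 with any 1 hashtag left out. With the coarse mix held fixed it was 0.92 (limma-voom adjusted p = 0.357). Of 13 tested chemokine receptor and integrin genes 2 passed, both higher, where 0.98% of all genes tested passed. That list had a median log2 fold change of 0.18 against -0.003 over all genes tested.

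Itgae itself did not pass. It was at 398, 434, 402 and 549 CPM in Cren and 334, 242, 346 and 140 CPM in Crep, so every Crep hashtag lay below every Cren hashtag while the fit gave a log2 fold change of -0.68 ± 0.20 (SE; adjusted p by edgeR 0.209). Klf2 overlapped fully, with 193 ± 64.9 CPM for Cren and 205.5 ± 113 CPM for Crep, a log2 fold change of -0.06 ± 0.40 (SE; adjusted p by edgeR 1).

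Among ectoenzyme and redox genes 4 of 13 tested passed, all higher, where 0.98% of all genes tested passed. The list had a median log2 fold change of 0.25 inside the cluster and 0.18 in all other cells. Glrx, the glutaredoxin that repairs oxidised protein thiols, was at 258, 184, 219 and 195 CPM in Cren and 358, 394, 434 and 310.5 CPM in Crep. All Crep values were higher, for a log2 fold change of 0.85 ± 0.13 (SE; adjusted p by edgeR 8.99e-05), and Glrx passed in all 8 omissions of a hashtag. Entpd1, the gene of the ATP-degrading enzyme CD39, rose from 27.6 ± 7.91 to 70.2 ± 16.0 CPM (SD, n = 4; log2 fold change 1.38 ± 0.25 SE, adjusted p by edgeR 0.00131). Its adjusted p was 0.0578 without Crep 2, and its log2 fold change was 0.74 with the coarse mix held fixed. Cyba, a subunit of the NADPH oxidase, rose from 811 ± 96.3 to 1110 ± 78.9 CPM (log2 fold change 0.46, adjusted p by edgeR 0.0128; 0.059 to 0.15 without any 1 of Cren 1 and Crep 2). Enpp4, an ectonucleotide pyrophosphatase, rose from 11.65 ± 4.88 to 31.8 ± 2.76 CPM (log2 fold change 1.43, adjusted p by edgeR 0.0316). The adjusted p was 0.0886 to 0.278 without any 1 of Cren 1, Cren 2, Crep 1, Crep 2 and Crep 3. The Enpp4 levels rest on 3, 4, 5 and 11 UMIs in the Cren hashtags and 15, 27, 13 and 4 in the Crep hashtags.

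Whether Gzmb, the granzyme that cleaves caspases in target cells (chromosome 14, 56258838 to 56262260), passed depended on the test. Gzmb was at 1190, 699, 984.5 and 427 CPM in Cren and 3360, 2455, 2606 and 2772 CPM in Crep. Every Crep hashtag lay well above the highest Cren hashtag, and Cren 4 was the lowest. The log2 fold change was 1.78 (SE 0.32), with an adjusted p of 0.0967 in edgeR, 4.22e-05 in DESeq2 and 4.04e-05 in limma-voom. With the coarse mix held fixed it was 1.17 (limma-voom adjusted p = 0.00141), one of the 2 genes that passed there. The other was the transcript AC163354.1 (log2 3.12, limma-voom adjusted p = 0.031). Gzma, by comparison, was at 4943, 3194, 2024 and 1973 CPM in Cren and 2836, 1979, 3097 and 2373 CPM in Crep, with full overlap (log2 fold change -0.23 ± 0.35 SE, adjusted p by edgeR 0.934). Gzmk was at 517, 430, 432 and 204 CPM in Cren and 616, 475, 693.5 and 643 CPM in Crep (log2 fold change 0.62 ± 0.30 SE, adjusted p by edgeR 0.648).

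Of 15 tested killing genes 1 passed, where 0.98% of all genes tested passed. It was Nkg7, a protein of cytotoxic granules, which rose from 2435 ± 452 to 3365 ± 166 CPM (SD, n = 4). Its log2 fold change was 0.47 ± 0.10 (SE, adjusted p by edgeR 0.0118). The adjusted p was 0.052 to 0.0895 without any 1 of Cren 1, Cren 2, Crep 2 and Crep 3. Of 6 tested killer lectin receptor genes all were on the higher side, as were 2669 of all 5409 genes tested. The list had a median of 0.65 inside the cluster and 0.57 in all other cells, and 1 gene passed. Klrc1, the gene of NKG2A, rose from 331 ± 56.8 to 505 ± 96.7 CPM (log2 fold change 0.56, adjusted p by edgeR 0.0195; 0.0584 to 0.136 without any 1 of Cren 1, Cren 3, Crep 2, Crep 3 and Crep 4). The chemokine gene Ccl3 rose from 44.8 ± 14.1 to 93.3 ± 26.7 CPM (log2 fold change 0.89, adjusted p by edgeR 0.0279; 0.054 to 0.104 without any 1 of Cren 1, Cren 3, Cren 4, Crep 2, Crep 3 and Crep 4), the 1 of 9 cytokine genes to pass.

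**Figure D4:**
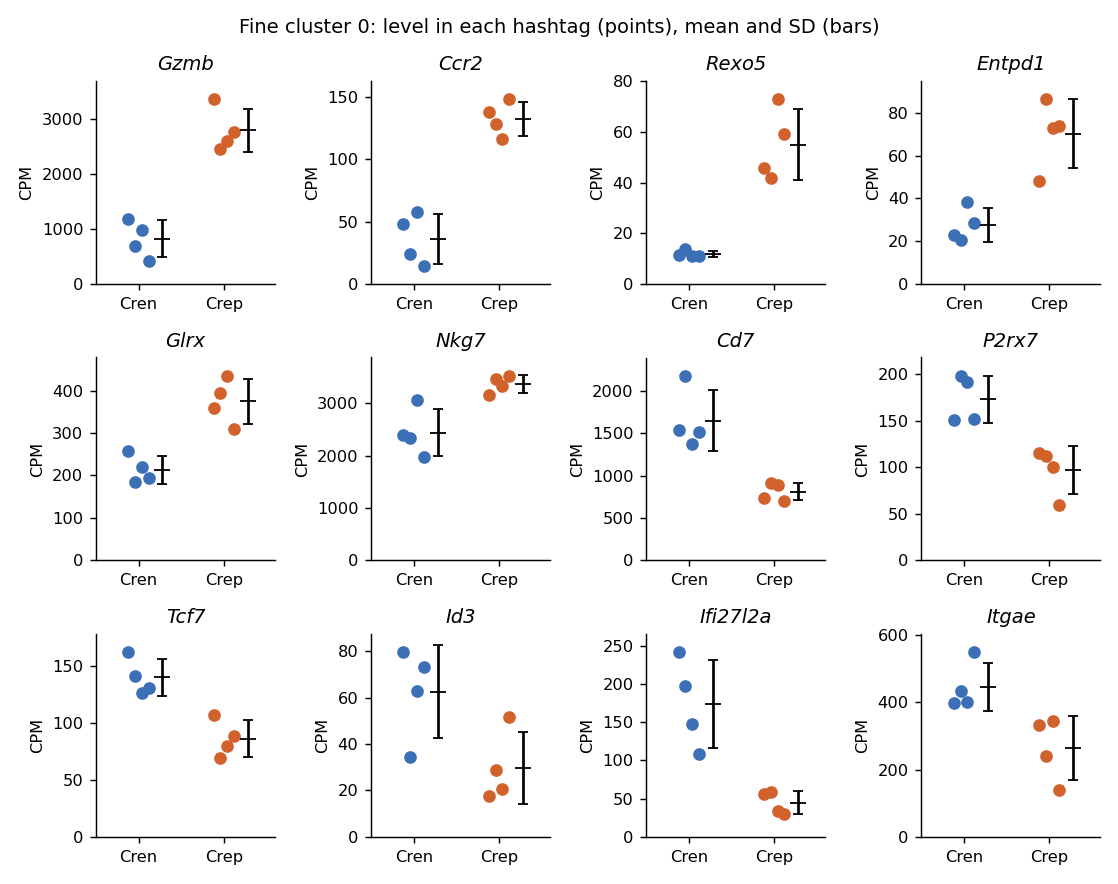
Level in CPM of 12 genes in fine cluster 0; points are hashtags (blue Cren, orange Crep) and black bars the mean with SD over 4. The groups overlap for Id3 and for no other gene shown, from Gzmb (825 ± 333 and 2798 ± 396 CPM) to Itgae, and these last 2 did not pass the edgeR test.

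Cd7 (chromosome 11, 121036747 to 121039418) was a leading gene of the cluster that was lower in Crep. It was at 1530, 2172, 1370 and 1517 CPM in Cren and 740.1, 906, 889 and 702 CPM in Crep, with a log2 fold change of -1.01 ± 0.13 (SE; adjusted p by edgeR 8.99e-05). All Crep hashtags lay below all Cren hashtags, and the call held without any 1 hashtag. Within coarse cluster 1 alone the difference was -0.41 (edgeR adjusted p = 0.905), within coarse cluster 0 alone -0.18 (0.839), and with their mix held fixed -0.31 (limma-voom adjusted p = 0.727). The other leading genes of the cluster that fell were P2rx7, Cd160, Ckb, Dtx1 and Actn2. P2rx7 went from 173 ± 25.4 to 96.8 ± 26.0 CPM (log2 fold change -0.73, adjusted p by edgeR 0.0116; 0.0722 to 0.0783 without any 1 of Cren 2 and Crep 3). Cd160 went from 658 ± 96.3 to 469 ± 56.1 CPM (log2 fold change -0.48, adjusted p 0.0258; 0.0584 to 0.173 without any 1 of Cren 1, Cren 3, Crep 1, Crep 2 and Crep 4). Ckb was at 214.5 ± 64.3 and 134 ± 25.0 CPM (log2 fold change -0.76, adjusted p 0.0405; 0.0531 to 0.218 without any 1 of Cren 1, Cren 4, Crep 1, Crep 2, Crep 3 and Crep 4). Dtx1 dropped from 107 ± 9.77 to 68.6 ± 16.9 CPM (log2 fold change -0.74, adjusted p 0.0315; 0.0509 to 0.278 without any 1 of Cren 1, Cren 3, Cren 4, Crep 2 and Crep 3). Actn2, an alpha-actinin gene, dropped from 339 ± 45.5 to 221 ± 63.0 CPM (log2 fold change -0.58, adjusted p 0.0445; 0.0571 to 0.297 without any 1 of Cren 1, Cren 2, Cren 3, Crep 2, Crep 3 and Crep 4), and in the cells of coarse cluster 0 alone its log2 fold change was 0.13. The 6 of the 20 leading higher genes that passed were all lower, where 0.98% of all genes tested passed. Of the 20 leading higher genes 10 had an unadjusted p under 0.05, 3 passed in DESeq2 and 6 in limma-voom. Capg, an actin-capping protein gene, was at 256 ± 32.3 and 493 ± 151 CPM (log2 fold change 0.92, adjusted p 0.108).

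The scavenger-like receptors that dampen T cell receptor signalling were lower. Cd5 fell from 177 ± 36.9 to 110 ± 31.0 CPM (SD, n = 4; log2 fold change -0.81 ± 0.18 SE, adjusted p by edgeR 0.0132; 0.0571 to 0.194 without any 1 of Cren 1, Cren 2, Crep 1 and Crep 2) and Cd6 from 247 ± 36.2 to 176 ± 43.6 CPM (log2 fold change -0.57, adjusted p 0.0445; 0.0797 to 0.404 without any 1 of Cren 1, Cren 2, Cren 4, Crep 2 and Crep 3). They were the 2 of 18 T cell identity genes that passed, where 0.98% of all genes tested passed. That list had a median of 0.011. In DESeq2 0 genes of the list passed (adjusted p 0.0612 for Cd5 and 0.192 for Cd6) and in limma-voom 1, Cd5 (0.0347). Cd74, the invariant chain of MHC class II, fell from 172 ± 21.9 to 93.7 ± 12.3 CPM (log2 fold change -0.89 ± 0.16 SE, adjusted p by edgeR 0.000753) and passed in all 8 omissions. It was the 1 of 4 tested myeloid markers to pass; summed myeloid markers were at 258 to 352.5 CPM in Cren and 215 to 296 CPM in Crep, and their part in the Cd74 difference was not tested.

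Of 12 tested stem-like memory genes 2 passed, both lower, where 0.98% of all genes tested passed, although the list median was 0.025. In DESeq2 0 of these genes passed (adjusted p 0.0974 for Tcf7 and 0.0702 for Id3) and in limma-voom 1, Tcf7 (0.0309). Tcf7, the gene of the memory factor TCF-1, was at 162, 141, 126 and 131 CPM in Cren and 107, 69.2, 79.6 and 88.7 CPM in Crep, with every Crep hashtag lower (log2 fold change -0.72 ± 0.17 SE, adjusted p by edgeR 0.0187). Its adjusted p was 0.0679 without Cren 1, 0.0505 without Cren 2, 0.227 without Crep 2 and 0.117 without Crep 3. Id3, an inhibitor of E proteins, fell from 62.5 ± 19.96 to 29.6 ± 15.5 CPM (log2 fold change -1.24 ± 0.29 SE, adjusted p 0.0196), with 1 Crep hashtag, at 51.7 CPM, above the lowest Cren hashtag, and its adjusted p was 0.0747 to 0.152 without any 1 of Cren 1, Cren 4, Crep 1, Crep 2 and Crep 3. Id2, its counterpart in effector cells, was at 182 ± 39.4 and 248.5 ± 30.4 CPM (log2 fold change 0.45, adjusted p by edgeR 0.153). Bhlhe40, a transcription factor of tissue-resident cells, rose from 239 ± 50.8 to 347 ± 46.6 CPM (log2 fold change 0.53, adjusted p by edgeR 0.0405). The adjusted p was 0.0584 to 0.361 without any 1 of Cren 1, Cren 3, Crep 1, Crep 2, Crep 3 and Crep 4. Bhlhe40 was lower in the cluster than outside it, where it was at 649 CPM in Cren and 759 CPM in Crep.

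Exhaustion genes went both ways, with 3 of 13 tested inhibitory receptor and exhaustion genes past the test, against 0.98% of all genes tested. In DESeq2 and in limma-voom only 1 gene of the list passed, Entpd1 (adjusted p 0.00837 and 0.0123). Cd160 had an adjusted p of 0.0841 in DESeq2 and 0.0686 in limma-voom. For Tox it was 0.0539 in limma-voom, and DESeq2 gave none. Tox, which encodes a factor of exhausted cells, fell from 31.3 ± 3.04 to 14.7 ± 10.3 CPM (log2 fold change -1.45 ± 0.37 SE, adjusted p by edgeR 0.0405), but it passed in 1 of 8 omissions, that of Crep 4, with an adjusted p of 0.082 to 0.295 in the others. The Tox levels rest on 10, 18, 13 and 19 UMIs in the Cren hashtags and 3, 7, 6 and 4 in the Crep hashtags. Cd160 was the other that fell and Entpd1 the one that rose. Pdcd1, the gene of PD-1, was at 34.1, 27.5, 43.8 and 17.5 CPM in Cren and 10.9, 23.5, 6.82 and 59.1 CPM in Crep, with overlap (log2 fold change -0.60 ± 0.41 SE, adjusted p by edgeR 0.778). Prdm1, the gene of the BCL6 antagonist BLIMP-1, was at 17.04, 24.1, 19.1 and 23.9 CPM in Cren and 26.2, 22.2, 34.1 and 7.39 CPM in Crep (log2 fold change 0.20 ± 0.33 SE, adjusted p by edgeR 0.942). Of 17 tested genes of the BCL6 axis 3 passed as higher and 1 as lower, where 0.98% of all genes tested passed. Those that rose were Ccl3, the cyclin gene Ccnd2 and the cytokine-signalling inhibitor Socs2. Ccnd2 went from 87.4 ± 24.9 to 162 ± 33.1 CPM (log2 fold change 0.81, adjusted p by edgeR 0.0116, and 0.0536 to 0.0638 without any 1 of Cren 1 and Crep 2). Socs2 went from 24.3 ± 10.9 to 62.4 ± 15.9 CPM (log2 fold change 1.39, adjusted p by edgeR 0.00732, and 0.0519 without Cren 2). Rora, a nuclear receptor, fell in the same list from 198 ± 55.2 to 125 ± 28.01 CPM (log2 fold change -0.77, adjusted p 0.0195; 0.0953 to 0.148 without any 1 of Cren 4, Crep 1, Crep 2 and Crep 3).

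Bcl6 was too low for the count filter in the cluster, with 3, 13, 4 and 19 UMIs in the Cren hashtags and 9, 26, 9 and 3 in the Crep hashtags. These UMIs are counted per gene by a 5′ kit and say nothing about deletion of the floxed part.

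Rexo5, an RNA exonuclease gene (chromosome 7, 119794006 to 119848943), was at 11.4, 13.8, 10.9 and 11.2 CPM in Cren and 45.85, 41.8, 72.8 and 59.1 CPM in Crep, a log2 fold change of 2.11 ± 0.31 (SE; adjusted p by edgeR 8.99e-05). These levels rest on 4, 8, 4 and 7 UMIs in the Cren hashtags and 21, 32, 32 and 8 in the Crep hashtags. All Crep hashtags lay above all Cren hashtags, while the Cren counts are too small to show how equal those hashtags were. Pik3r5, a regulatory subunit of phosphoinositide 3-kinase gamma, rose from 23.7 ± 1.62 to 71.0 ± 10.4 CPM (SD, n = 4; log2 1.54, SE 0.24, adjusted p = 0.000171), and Apc, the Wnt pathway scaffold, from 14.6 ± 5.89 to 45.5 ± 15.1 CPM (log2 fold change 1.48 ± 0.33 SE, adjusted p 0.0128; 0.0578 to 0.0782 without any 1 of Cren 2 and Crep 2). The transcript 1500009L16Rik, named here after its values were seen, was at 4.70 ± 2.85 and 36.4 ± 6.97 CPM (log2 fold change 3.07 ± 0.44 SE, adjusted p by edgeR 8.99e-05). Its Cren level, below that of Rexo5, also rests on few UMIs. Among transcripts of less known function, Gm21887 rose from 39.6 ± 5.65 to 97.0 ± 17.2 CPM (log2 fold change 1.20, adjusted p 0.00045) and AC163354.1 from 17.5 ± 13.9 to 85.2 ± 23.7 CPM (log2 fold change 2.58, adjusted p 0.0104; 0.0584 to 0.0774 without any 1 of Cren 2 and Crep 4).

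The other large increases were in genes with low levels. Bspry rose from 21.7 ± 11.3 to 46.9 ± 7.59 CPM (SD, n = 4; log2 fold change 1.303, adjusted p by edgeR 0.0172; 0.0505 to 0.168 without any 1 of Cren 2, Cren 4, Crep 2 and Crep 3) and Wdr95 from 20.4 ± 10.3 to 50.9 ± 14.9 CPM (log2 fold change 1.51, adjusted p 0.00744; 0.052 to 0.194 without any 1 of Cren 2 and Crep 2), which had -0.048 in the cells of coarse cluster 0 alone. AA467197 rose from 47.2 ± 18.2 to 101.6 ± 27.5 CPM (log2 fold change 1.097, adjusted p 0.00943; 0.0505 to 0.145 without any 1 of Cren 2 and Crep 2). The groups did not overlap for these 3 genes, though the nearest hashtags were close, at 35.55 and 37.0 CPM for Bspry. Among low genes that fell, Matk, a kinase that acts on SRC family kinases, was at 60.5 ± 18.8 and 25.0 ± 13.9 CPM (log2 fold change -1.11, adjusted p 0.0373; 0.0624 to 0.3 without any 1 of Cren 2, Cren 3, Crep 2, Crep 3 and Crep 4). Gm26669 was at 58.7 ± 10.6 and 31.5 ± 6.45 CPM (log2 fold change -1.01, adjusted p 0.0315; 0.0557 to 0.313 without any 1 of Cren 1, Cren 4, Crep 1, Crep 2 and Crep 3).

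Among the larger decreases, Ifi27l2a, an interferon-inducible gene, was at 241, 198, 148 and 108 CPM in Cren and 56.8, 58.8, 34.1 and 29.6 CPM in Crep (log2 fold change -1.79 ± 0.26 SE, adjusted p by edgeR 0.00221). Of 19 tested interferon-response genes 16 were on the higher side, as were 2669 of all 5409 genes tested. The list had a median of 0.29 inside the cluster and 0.115 in all other cells. Ifi208 rose (56.1 ± 17.9 to 102 ± 22.1 CPM, log2 0.83, adjusted p = 0.0373; 0.0578 to 0.233 without any 1 of Cren 2, Cren 4, Crep 1, Crep 2, Crep 3 and Crep 4). Ier5l, an early-response gene, fell from 68.8 ± 31.5 to 19.0 ± 2.62 CPM (log2 fold change -1.98 ± 0.30 SE, adjusted p 0.000194), and Lysmd2 from 96.7 ± 20.1 to 38.7 ± 11.4 CPM (log2 fold change -1.21 ± 0.21 SE, adjusted p 0.000753), both in all 8 omissions. Of 22 tested early-response and AP-1 genes the RNA-decay factors Zfp36 (275 ± 27.8 to 191 ± 27.8 CPM, adjusted p = 0.0384; 0.0503 to 0.243 without any 1 of Cren 1, Cren 2, Cren 4, Crep 1, Crep 2, Crep 3 and Crep 4) and Zfp36l1 (273 ± 36.1 to 180 ± 24.9 CPM, adjusted p = 0.00943; 0.159 without Crep 2) fell, and the median was 0.005. In the cells of coarse cluster 0 alone their log2 fold changes were 0.019 and 0.081. Cited2, a transcriptional coregulator, fell from 129 ± 24.6 to 73.5 ± 6.74 CPM (log2 fold change -0.80, adjusted p 0.00943; 0.0849 without Crep 3), and Bcl2a1d, a survival factor of the BCL2 family, from 173 ± 24.7 to 94.85 ± 20.4 CPM (log2 fold change -0.78, adjusted p 0.00603; 0.0553 without Crep 3).

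For other programs 0 members passed in edgeR. These were the TGF-beta pathway (13 tested, median -0.22), heat shock (11, -0.10), S100, annexin and galectin (14, 0.24), glycolysis (13, 0.002), oxidative phosphorylation (27, 0.03), cytosolic ribosomal proteins (30, 0.008), cell cycle (6, 0.07) and survival and death genes (13, 0.04). At an unadjusted p under 0.05 there were 4 TGF-beta pathway genes, 4 of the S100, annexin and galectin list, 2 of oxidative phosphorylation, 1 of glycolysis and 0 of the others. In DESeq2 1 TGF-beta pathway gene and 1 S100, annexin or galectin gene passed, and in limma-voom 1 of the latter. Gapdh, an enzyme of glycolysis, was lower in every Crep hashtag, at 3427 ± 156 against 4055 ± 206 CPM, with an unadjusted p of 0.00857 and an adjusted p by edgeR of 0.281.

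The share of cells with a UMI was read for 12 genes after thinning each cell to 1500 UMIs, which left 1195 cells, with 63 left out in each group. Gzmb was seen in 42.6%, 42.4%, 42.6% and 21.4% of cells in the Cren hashtags and in 85.35%, 79.7%, 76.3% and 85.1% in the Crep hashtags. More cells thus carried the RNA in every Crep hashtag, for a mean of 81.6% ± 4.42 against 37.2% ± 10.6 (SD, n = 4, exact permutation p = 0.0286, adjusted p = 0.0857). The same smallest possible p for 4 against 4 hashtags was reached by Gzmk (47.0% ± 3.65 against 32.4% ± 8.74), Klrd1 (47.6% ± 3.91 against 34.3% ± 5.59) and Id2 (31.8% ± 3.10 against 21.9% ± 3.19), and none passed after adjustment over the 12 genes. So few genes at this smallest p could not pass that adjustment. Itgae was at 28.6% ± 7.14 against 42.0% ± 7.09 (exact p = 0.0571, adjusted p = 0.114) and Tcf7 at 11.9% ± 2.91 against 16.1% ± 2.16 (exact p = 0.0571, adjusted p = 0.114). Gzmb and Klrd1 also did not overlap at 1000 and 2000 UMIs. Id2 overlapped at both (exact p = 0.229 and 0.143) and Gzmk at 2000 UMIs (exact p = 0.2), while Itgae did not overlap at either depth (exact p = 0.0286). Before thinning, 65.9% of the cells had a Gzmb UMI and 47.9% an Itgae UMI. The lowest share in any fine cluster, at the same depth, was 39.1% for Gzmb (cluster 5, median 2941 UMIs) and 0.561% for Itgae (cluster 7, median 2654 UMIs). No cluster here is known to lack Gzmb, so its share was not set against a background.

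To ask which of these differences were not the same outside the cluster, the difference between Crep and Cren was compared inside and outside in 1 fit with the hashtag as a block. Outside, 43 of 9350 genes passed (0.46%), and 6 of the 53 genes called inside were among them. The difference of the effects itself passed for 23 of 8806 genes (0.261%), 13 on the higher and 10 on the lower side, of which 7 were ribosomal protein genes and 3 were T cell receptor alpha segments. Ccr2 (difference 0.72, SE 0.21, edgeR adjusted p = 0.148), Cd7 (-0.27, SE 0.09, 0.224), Gzmb (0.20, SE 0.09, 0.554) and Rexo5 (0.74, SE 0.36, 0.664) did not pass. For Gzma the call depended on the tool: its log2 fold change was -0.23 inside and 1.29 outside (difference -1.66, SE 0.40), with an adjusted p of 0.329 in edgeR and 1.84e-06 in limma-voom.

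Apc had the largest difference among the genes named: its log2 fold change was 1.48 inside the cluster and -0.12 outside (difference 1.69 ± 0.35 SE, adjusted p by edgeR 0.00824; 0.151 without Cren 2 and 0.0879 without Crep 1). Pik3r5 rose more inside than outside (1.54 against 0.49, difference 1.04, SE 0.24, adjusted p = 0.0302), although its level in Cren was 23.7 CPM inside and 94.0 CPM outside. Its difference passed in 1 of 8 omissions, that of Crep 3 (0.055 to 0.175 in the others). Bcl2, the survival factor, had a log2 fold change of 0.34 inside and -0.33 outside (difference 0.78, SE 0.17, adjusted p = 0.0151; 0.274 without Cren 4 and 0.188 without Crep 1). The chaperone gene Hsp90aa1 had -0.04 inside and -0.52 outside (difference 0.49, SE 0.11, adjusted p = 0.0151; 0.0639 to 0.216 without any 1 of Cren 1, Cren 4, Crep 1 and Crep 2). In the other direction, Pycard, the inflammasome adaptor ASC, was at 220 ± 31.3 in Cren and 185 ± 32.9 CPM in Crep inside, where its log2 fold change was -0.20, against 0.48 outside (difference -0.76, SE 0.13, adjusted p = 0.00123). Pycard passed in all 8 omissions. Adgre5, the adhesion receptor CD97, fell inside (291 ± 25.7 to 203 ± 36.7 CPM, log2 -0.56, edgeR adjusted p = 0.0216, which was 0.0509 to 0.256 without any 1 of Cren 2, Cren 3, Crep 1, Crep 2 and Crep 3) and had 0.11 outside (difference -0.70, SE 0.14, adjusted p = 0.00824; 0.0602 to 0.0879 without any 1 of Cren 4, Crep 1 and Crep 3). Hip1 (-0.94; adjusted p 0.0613 without Cren 4), Ctsd, the gene of cathepsin D (-0.53; 0.0636 to 0.0884 without any 1 of Cren 2, Crep 1 and Crep 3), Reep5 (-0.48; 0.098 to 0.167 without any 1 of Cren 2, Cren 4, Crep 1 and Crep 3) and the intermediate filament gene Vim (-0.35; 0.0879 without Crep 1) also had differences below 0 and log2 fold changes above 0 outside. Of the 7 ribosomal protein genes Rps27 (0.19 inside, -0.15 outside) and Rpl36a (0.12 and -0.25; adjusted p 0.0544 to 0.0882 without any 1 of Cren 1, Cren 2, Cren 4, Crep 1 and Crep 3) are named, and Rps27 passed in all 8 omissions. The count of 23 genes itself was 6 without Crep 1, 13 without Cren 4, 14 without Crep 3 and 39 without Cren 3. Set against fine clusters 1, 2 or 3 alone in place of all other cells, 8, 5 and 7 genes passed, and of the 12 named genes with a difference only Pik3r5 and Rps27 did, both against cluster 1.

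**Figure D5:**
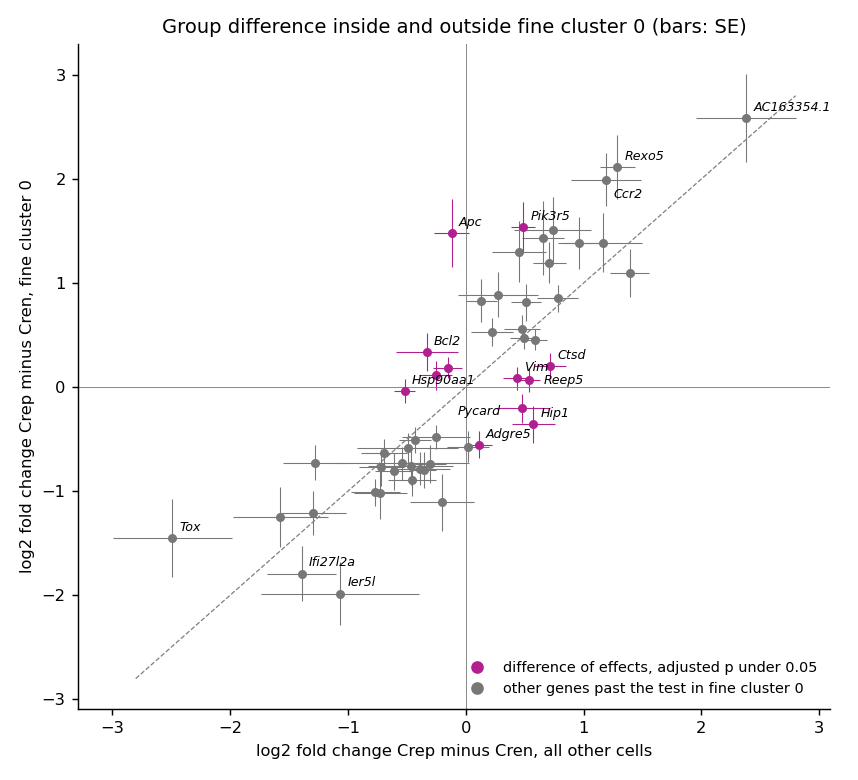
Log2 fold change Crep minus Cren inside fine cluster 0 (vertical) and in all other cells (horizontal) for the named genes past either test, with SE bars; the dashed line marks equal change. Purple genes passed the test of the difference itself, such as Apc (1.48 inside, -0.12 outside) and Adgre5 (-0.56 inside, 0.11 outside).

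A few cells of the cluster held a UMI of Cd4, which the donor CD8 cells were sorted to lack. They numbered 0, 1, 0 and 0 in the Cren hashtags and 5, 11, 5 and 3 in the Crep hashtags, or 2.73%, 4.17%, 3.27% and 5.77% of the Crep cells. For Cren 1, 3 and 4 a count of 0 allows shares of cells with a Cd4 UMI of up to 2.68%, 2.38% and 1.35%, which is no limit on the cells that express the gene. Cd8b1 was found in all 24 of these Crep cells and in 89.7% of the Crep cells of the cluster.

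Of the 4 measures of cell quality compared between the groups within the cluster 0 passed after adjustment, and 0 had an unadjusted p under 0.05. The smallest exact permutation p for 4 against 4 hashtags is 0.0286, so 1 fully separated measure alone could not pass after adjustment. This test therefore cannot show that quality was equal. For median UMIs per cell, Cren had 2801 ± 98.0 and Crep 2686 ± 222 (SD, n = 4, exact permutation p = 0.371, adjusted p = 0.495). The median mitochondrial share was 0.748% ± 0.0403 and 0.674% ± 0.0149 (exact p = 0.0571, adjusted p = 0.229), and the ribosomal share 20.4% ± 1.59 and 20.55% ± 0.954 (exact p = 0.771, adjusted p = 0.771). Their part in the gene differences was not tested.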

How the data were processed

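The authors deposited a table of UMI counts per gene and cell and an annotation of each cell with its hashtag, group and cluster labels and with the percent of its UMIs in mitochondrial and ribosomal genes, as deposited. The submitters' processing notes name Seurat 4.3.0, Cell Ranger 7.0.0, mm10 and bcl2fastq 2.20.0.422 without their roles. No deposited cell has fewer than 500 genes or more than 3.0% of its UMIs in mitochondrial genes. No doublet caller was run here: 4 cells of the cluster are doublets by one hashtag classifier, 22 lack the same hashtag from both classifiers, and 43 have over 6000 UMIs.

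Counts were summed per hashtag and tested with edgeR 4.0.16 (TMM, filterByExpr, robust quasi-likelihood, Benjamini-Hochberg at 0.05), in R 4.3.3. DESeq2 1.42.0, limma 3.58.1, no filter, omitted hashtags and other cell sets were alternatives. Ratios of CPM to other cells add 1 CPM to both. The fixed coarse mix averages the CPM of both coarse clusters in each hashtag, with no minimum of cells, and scales it to the hashtag's total. Exact two-sided permutation tests used scipy 1.17.1. The edgeR fits were tested on simulated counts. Coordinates are from GENCODE vM21 (GRCm38).

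Genes were named by these rules: the 20 higher and 10 lower leading genes with at least 50 CPM and 1 direction in every hashtag, the 12 largest changes in each direction past the test at a mean log2 CPM of at least 5, up to 6 per direction for the difference of effects, list members past the test or of smallest p, and 10 preset genes. A few genes that meet these rules are not reported here. The members and lists were chosen with earlier results of these data known.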

Additional observations from a re-analysis of the deposited data

Results flagged for a closer look

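Some hashtags lay far from the other 3 of their group, relative to the range of all 4. In Cren, 21.4% of the cells of Cren 4 had a Gzmb UMI at 1500 UMIs per cell, the nearest other hashtag being at 42.4%. Also in Cren, Cd74 was at 139 CPM in its lowest hashtag, with 180.5 CPM next. Rexo5 was at 13.8 CPM in its highest Cren hashtag, with 11.4 CPM next, a gap that rests on 8 and 4 UMIs. Zfp36l1 was at 327 CPM in its highest Cren hashtag, with 258 CPM next. In Crep, Pdcd1 was detected in 6.38% of cells in its highest hashtag, Crep 4, and 2.85% in the next. Crep 4 had 52 cells of the cluster and 8 Pdcd1 UMIs before thinning. Ccl3 was at 133 CPM in Crep 4, its highest Crep hashtag, on 18 UMIs, with 83.0 CPM next. Cd160 was at 552.5 CPM in its highest Crep hashtag, with 451 CPM next. Of 132 sets of 4 hashtags 7 held such a gap, and chance gives about 1 in 20.

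The difference between Crep and Cren was not the same inside fine cluster 0 as in all other cells for 12 named genes, by the test of the difference itself. The difference of log2 fold changes was above 0 for Apc (1.69), Pik3r5 (1.04), Bcl2 (0.78), Hsp90aa1 (0.49) and the ribosomal protein genes Rpl36a (0.38) and Rps27 (0.34). It was below 0 for Hip1 (-0.94), Pycard (-0.76), Adgre5 (-0.70), Ctsd (-0.53), Reep5 (-0.48) and Vim (-0.35).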

How the results depend on the processing

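The number of genes differing between Crep and Cren, 53, was 27 with DESeq2, 103 with no low-count filter, 8 with counts thinned to the smallest hashtag total, 3 in the larger coarse cluster alone, 2 in the smaller one alone and 2 with the coarse mix held fixed (the last pair chosen after seeing the data). The fixed mix was fitted with limma-voom, which gave 41 genes without that step. Fewer genes and cells entered the thinned and coarse-cluster fits. With 1 hashtag left out it ranged from 18 to 64. The number of genes with a difference of effects, 23, was 53 with limma-voom, 53 with no filter, and 8, 5 and 7 against fine clusters 1, 2 and 3 (chosen after seeing the data), and with 1 hashtag left out it ranged from 6 to 39. The cause was not tested.

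Gzma ranged from -0.39 to 0.10 with 1 hashtag left out, above 0 without Cren 1 only. In the smaller coarse cluster alone Actn2 (0.13), Gzmk (-0.48), Id2 (-0.23), Wdr95 (-0.048), Zfp36 (0.019) and Zfp36l1 (0.081) turned direction; the cause was not tested. Of the named genes' Crep to Cren differences within the cluster over its alternatives, 660 kept direction and side of the threshold, 299 lost the threshold and 5 gained it. Whether the replicate numbers pair the hashtags is not stated. Same-numbered hashtags had correlations of -0.064, 0.016, -0.043 and 0.046 over 2443 genes, and 1 of 4 correlated best with its own number. Such correlations cannot exclude a shared origin. With the replicate number as a block 59 genes passed. The cluster has 52 cells in Crep 4, which limits that hashtag's values.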
